A study of Mus musculus with 2 samples.

Results

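CC chemokines are small secreted proteins with a pair of adjacent cysteines, which direct white blood cells along concentration gradients by binding G protein-coupled receptors of the CCR family. In tumors, macrophages are a known source of them, and ligands of CCR2 such as Ccl2 are known for drawing monocytes out of the blood into the tumor. Most mouse genes of the family lie in clusters on chromosome 11, where the MCP (monocyte chemoattractant protein) genes and the MIP (macrophage inflammatory protein) genes occupy separate groups.

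The 10 genes described here, Ccl2, Ccl3, Ccl4, Ccl5, Ccl6, Ccl7, Ccl8, Ccl9, Ccl12 and Ccl24, were listed by name, and their rows were read from both deposited libraries by gene symbol. Each of the 10 has a single row in each library, and they stand among 22886 genes in all. The libraries are polyA RNA of sorted cells labelled as aerobic, taken from subcutaneous Lewis lung carcinoma (LLC, a mouse lung tumor line) of wild-type C57BL/6 mice that had received either vehicle (Veh) or clodronate (Clod), an agent commonly given in liposomes to deplete macrophages. There was 1 library per condition, so differences below lack a replicate check and carry no p-value. The labels do not state the age of the mice, the number of animals behind a library, the sort gate or what defined an aerobic cell, and a growth protocol in them names a cultured cell line that conflicts with the tissue label. Values are RPKM, reads scaled to transcript length and to the size of the library, a scale on which levels of different genes can be compared.

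The sorted cells carried macrophage transcripts at high levels in both libraries. All 16 macrophage markers had at least 10 RPKM in both, with summed levels of 28241 RPKM with vehicle and 26557 RPKM with clodronate and a median log2 ratio of 0.03. Of 12 T and NK cell markers 4 were listed at 0 in both, among them Cd3e, Cd3g and Ncr1, whereas Cd3d had 0.837 and 0.0789 RPKM. Of the 7 neutrophil markers found 4 were listed at 0 in both, S100a9 among them, whereas S100a8 had 12.7 and 23.1 RPKM and Csf3r had 26.4 and 19.3 RPKM. Of 8 epithelial markers 5 were listed at 0 in both, Epcam among them, whereas Cdh1 had 6.14 and 6.44 RPKM and Krt8 had 3.67 and 1.33 RPKM. In files without counts, a 0 is not read as absence. Low RPKM fell on regular steps, from which a depth of about 13.7 M reads was estimated for the vehicle and about 11.2 M for the clodronate library. In these bulk libraries, fewer cells of a type and less RNA per cell cannot be told apart.

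The 10 chemokine genes together had 3313 RPKM with vehicle and 5814 RPKM with clodronate, a ratio of 1.75. The MCP genes Ccl2, Ccl7, Ccl12 and Ccl8 were all higher in the clodronate library, by 1.97 to 3.60 times, and Ccl24, on another chromosome, was higher by 4.15 times. The 5 genes of the MIP cluster stayed between 0.831 and 1.63 times their vehicle level. Of the 10 genes, 7 were higher and 3 lower in the clodronate library, while 51.6% of all genes kept were higher. At least 3-fold higher, on RPKM with 1 added to each value, were 3 of the 10 (Ccl24, Ccl8 and Ccl12), against 2.86% of the 10982 genes kept, those whose mean reached 1 RPKM. At least 2-fold higher were 4 of the 10, with Ccl2 added and Ccl7 just short, against 6.95% of all genes. None of the 10 was 3-fold or 2-fold lower, against 2.32% and 6.77% of all genes. All 10 passed the filter on low values, and none had a mean under 37.9 RPKM; in the set of 5913 genes whose mean reached 10 RPKM, 1.40% were 3-fold or more higher and 1.05% were 3-fold or more lower. The median log2 ratio of the 10 genes was 0.83, and that of all genes kept was 0.02.

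**Figure D1:**
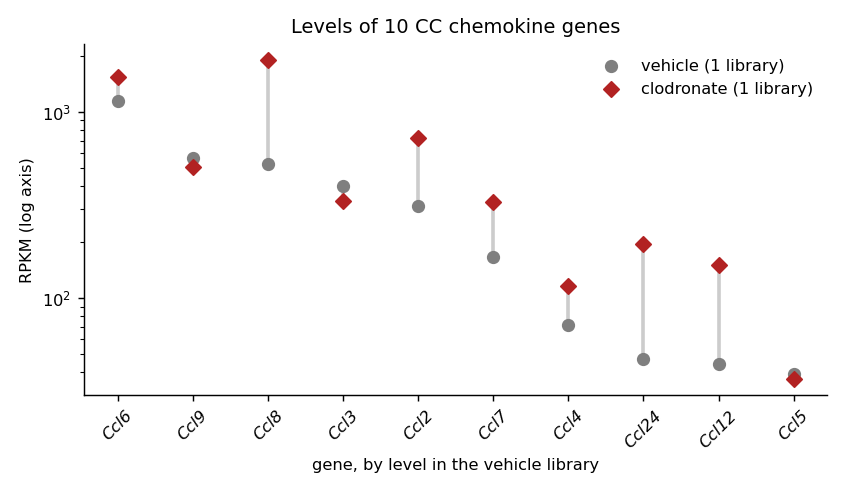
RPKM of the 10 CC chemokine genes (vertical log axis) in the vehicle library (grey circles) and the clodronate library (red diamonds), 1 library each and therefore without error bars, ordered by vehicle level. Ccl8 has the highest value of all in the clodronate library, 1895 RPKM, whereas the symbols of Ccl5 and of Ccl9 lie close together.

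The MCP genes lie within 81.2 kb of chromosome 11 (build mm9, intervals as deposited). Ccl2 (NM_011333, chromosome 11 from 81849078 to 81850954), the main ligand of CCR2, had 311 RPKM with vehicle and 720 RPKM with clodronate. These values rest on an estimated 2609 and 4925 reads, which give a ratio of 2.32 with an exact 95% interval of 2.21 to 2.43. This interval, like those that follow, was computed from rounded read estimates by the Clopper-Pearson method. It covers counting error of reads only, with the estimated depths taken as known, and not differences between mice, sorts or library preparations. PCR copies are not independent molecules, so it can be too narrow even for counting error. Ccl7 (NM_013654, from 81859213 to 81861025), a further CCR2 ligand, had 167 and 329 RPKM, a ratio of 1.97 (interval 1.84 to 2.11). Both neighbours were thus higher with clodronate, Ccl2 by slightly more, and Ccl2 was the more abundant of the pair in each library.

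Ccl12 (NM_011331, chromosome 11 from 81915346 to 81916901), which also signals through CCR2 in the mouse, had 44.5 RPKM with vehicle and 151 RPKM with clodronate. Its ratio was 3.39, with an interval of 2.88 to 3.99 from 205 and 565 reads, so that counting error alone spans the 3-fold threshold. Ccl8 (NM_021443, from 81928686 to 81930301), encoded next to Ccl12, had 526 and 1895 RPKM, a ratio of 3.60 (interval 3.43 to 3.78). In RPKM this was the largest difference of the 10 genes, 1368 RPKM, and it made Ccl8 the most abundant of them in the clodronate library. Among all genes kept, Ccl8 moved from rank 180 in the vehicle to rank 38 in the clodronate library. Of the genes kept, 1.88% had a log2 ratio above that of Ccl8 and 2.21% had one above that of Ccl12.

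The promoter sequences of Ccl12 and Ccl8 are shown because these neighbours had the highest ratios of the 9 listed genes on chromosome 11, beside that of Ccl9, a MIP cluster gene that was slightly lower. Each runs from 250 bases before to 50 bases after the start of the gene, 5′ to 3′ on the coding strand, and is taken from RefSeq on build GRCm38.p6, whose coordinates differ from those of mm9 above. Ccl12 is on the plus strand at chr11:82101595-82101894, Ccl8 on the plus strand at chr11:82114935-82115234 and Ccl9 on the minus strand at chr11:83578587-83578886. Capitals mark matches to the motifs searched.
Ccl12: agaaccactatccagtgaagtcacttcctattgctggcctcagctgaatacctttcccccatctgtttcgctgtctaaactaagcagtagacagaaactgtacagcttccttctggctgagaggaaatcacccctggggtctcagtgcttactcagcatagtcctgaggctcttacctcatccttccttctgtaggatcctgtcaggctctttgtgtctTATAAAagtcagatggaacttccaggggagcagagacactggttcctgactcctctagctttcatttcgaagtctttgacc
Ccl8: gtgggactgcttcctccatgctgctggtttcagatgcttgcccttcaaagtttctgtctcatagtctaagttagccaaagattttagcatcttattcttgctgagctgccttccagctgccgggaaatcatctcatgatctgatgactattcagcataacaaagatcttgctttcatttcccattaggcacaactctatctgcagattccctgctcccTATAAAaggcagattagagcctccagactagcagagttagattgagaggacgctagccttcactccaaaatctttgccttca
Ccl9: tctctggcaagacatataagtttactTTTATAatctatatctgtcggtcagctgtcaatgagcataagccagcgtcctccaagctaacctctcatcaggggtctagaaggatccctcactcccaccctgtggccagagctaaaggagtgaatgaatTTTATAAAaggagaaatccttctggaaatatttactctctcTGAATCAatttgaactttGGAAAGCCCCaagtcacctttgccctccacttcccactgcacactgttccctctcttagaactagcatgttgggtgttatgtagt

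RefSeq promoters were found for 5 of the 10 genes (Ccl12, Ccl8, Ccl3, Ccl6 and Ccl9) and searched on both strands for 6 motifs. The TATA box letters TATAAA began 31 bases before the start of Ccl12 and 32 bases before the start of Ccl8. Letters TATAAA on the coding strand wholly within 40 to 21 bases before the start were present in 1.87% of 32851 promoters, and anywhere on either strand in 13.6%. Ccl9 held these letters farther away, 92 bases before the start on the coding strand and at 2 places on the opposite strand, of which the one nearer to the start overlaps the coding-strand match in the run of capitals. Ccl9 was also the only one of the 5 with a match to the NF-κB motif, 35 bases before the start on the opposite strand and present in 4.51% of all promoters, and to the AP-1 motif TGANTCA, 53 bases before the start and present in 7.81%. The C/EBP motif TTGCNNAA (10.8% of all promoters), a STAT motif TTCNNNNGAA (6.95%) and the ISRE core GAAANNGAAA (3.44%) had no match in any of the 5 windows. STAT motifs with another spacing between TTC and GAA were not searched. In global alignments of the 5 promoters, Ccl12 and Ccl8 were 58.0% identical, the highest of 10 pairs, which ran down to 48.7%. These matches describe letters in the windows and not sites that a factor binds.

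The transcripts of Ccl12 and Ccl8 were likewise the closest pair among the 10 genes, at 63.6% identity. No stretch of 50 bases in any of the 10 transcripts occurred in the transcript of another CC chemokine gene. Only Ccl9 held such stretches of genes outside the family, 59 in all.

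**Figure D2:**
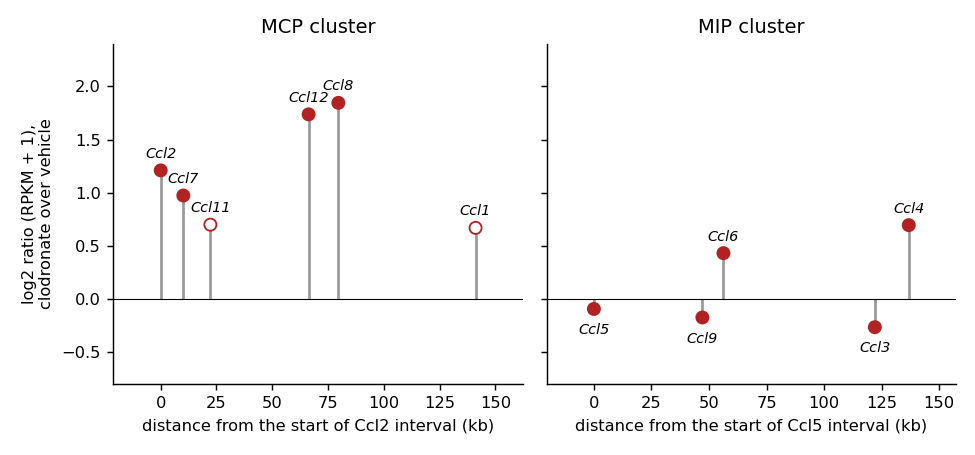
The log2 ratio of clodronate over vehicle, with 1 RPKM added to each value, for the genes of the MCP cluster (left) and the MIP cluster (right) on chromosome 11, against the distance in kb from the start of the first interval of each cluster. Filled points are the genes described here and open points, Ccl11 and Ccl1, are other genes of the cluster. All points on the left lie above 0, and those on the right lie between -0.27 and 0.69. Ccl1, at 0 and 0.589 RPKM, did not pass the filter on low values, and its point rests on the 1 RPKM added.

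The MIP cluster starts 1409 kb beyond Ccl8 on chromosome 11 and holds Ccl5, Ccl9, Ccl6, Ccl3 and Ccl4 within 139 kb. Its 5 genes summed to 2218 RPKM with vehicle and 2524 RPKM with clodronate, a ratio of 1.14, while the 4 MCP genes summed to 1048 and 3094 RPKM, a ratio of 2.95. The MIP genes therefore made up 66.9% of the summed level of the 10 genes in the vehicle and 43.4% in the clodronate library, and the MCP genes 31.6% and 53.2%. With 1 library per condition this difference between the clusters was not tested. The median log2 ratio was 1.47 over the 4 MCP genes and -0.10 over the 5 MIP genes.

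Ccl3 (NM_011337, chromosome 11 from 83461344 to 83462880) and Ccl4 (NM_013652, from 83476085 to 83478185), known as MIP-1α and MIP-1β, encode chemoattractants of monocytes and lymphocytes, and Ccl3 binds CCR1. Ccl3 had 398 RPKM with vehicle and 331 RPKM with clodronate, a ratio of 0.831 with a counting interval of 0.786 to 0.879. Its neighbour Ccl4 had 71.3 and 116 RPKM, a ratio of 1.63 (interval 1.44 to 1.84). The pair thus stood on opposite sides of equality. The sign of Ccl3 did not hold under a correction for GC content and transcript length, where its log2 ratio was 0.11 instead of -0.27.

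Ccl5 (NM_013653, chromosome 11 from 83339280 to 83344020), or RANTES, binds CCR1 and CCR3, among others, and is made by T and NK cells as well as by macrophages. It had 39.2 RPKM with vehicle and 36.6 RPKM with clodronate, the lowest level of the 10 genes in each. From 178 and 135 reads its ratio was 0.934 with an interval of 0.739 to 1.17, and Ccl5 was the only gene of the 10 whose counting interval included 1. Under the correction for GC content and length its log2 ratio was 0.13 instead of -0.10. The 12 T and NK cell markers summed to 11.8 and 10.4 RPKM, most of it from Cd4 with 10.3 and 7.72 RPKM, and only Cd4 passed the filter on low values.

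Ccl6 (NM_009139) and Ccl9 (NM_011338, chromosome 11 from 83386418 to 83392138) are ligands of CCR1 and were the most abundant of the 10 genes in the vehicle library. Ccl6 had 1142 RPKM with vehicle and 1538 RPKM with clodronate, a ratio of 1.35 (interval 1.32 to 1.37), and ranked 84 and 53 among all genes kept. Ccl9 had 568 and 502 RPKM, a ratio of 0.885 (interval 0.867 to 0.904). Ccl9 was thus slightly lower and Ccl6 slightly higher, although they lie side by side. The deposited interval of Ccl6, from 83395562 to 83437195, is 41634 bp long and is the same as that of the non-coding gene E230016K23Rik, chosen after its values were seen, which had 0.488 and 4.88 RPKM. In the GENCODE annotation of GRCm38 no exon of another gene overlaps an exon of any of the 10 genes.

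Ccl24 (NM_019577, chromosome 5 from 136045806 to 136048913), or eotaxin-2, attracts eosinophils through CCR3 and is known from macrophages activated by interleukin-4. It had 47.2 RPKM with vehicle and 196 RPKM with clodronate, and its ratio of 4.15 (interval 3.82 to 4.52, from 709 and 2400 reads) was the highest of the 10. Of all genes kept, 1.46% had a higher log2 ratio. Its neighbour Ccl26, from 136036317 to 136039439 on the same chromosome and likewise a ligand of CCR3, was listed at 0 in the vehicle and had 7.33 RPKM in the clodronate library. Ccr3 itself had 2.58 and 0.869 RPKM, and of the eosinophil genes Siglecf and Epx were listed at 0 in both, whereas Prg2 was listed at 0 in the vehicle and had 1.54 RPKM in the clodronate library.

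**Figure D3:**
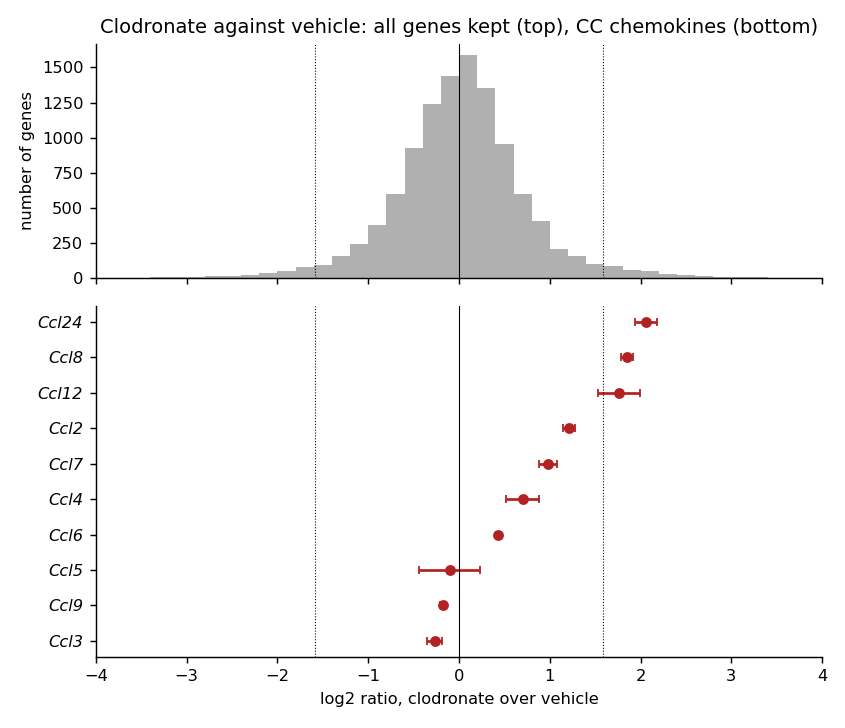
Top, the number of genes kept by log2 ratio of clodronate over vehicle (RPKM + 1, bins of 0.2). The axis ends at -4 and 4, so genes beyond these values are not drawn. They include 34 genes in the highest bin and 6 in the lowest. Bottom, the log2 ratio of each CC chemokine gene from RPKM as deposited, with bars for the exact 95% interval of counting error only; dotted lines mark 3-fold. Ccl24, Ccl8 and Ccl12 lie beyond the dotted line, and only the bar of Ccl5 crosses 0.

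The order of the 10 levels differed between the libraries. In the vehicle library it ran from Ccl6 through Ccl9, Ccl8, Ccl3, Ccl2, Ccl7, Ccl4, Ccl24 and Ccl12 to Ccl5, and in the clodronate library from Ccl8 through Ccl6, Ccl2, Ccl9, Ccl3, Ccl7, Ccl24, Ccl12 and Ccl4 to Ccl5. Ccl8 provided 15.9% of the summed level in the vehicle and 32.6% in the clodronate library, and Ccl6 provided 34.5% and 26.5%. Since no spread between replicates is known, neighbours in these orders cannot be called different. In both libraries 5 of the 10 genes, Ccl6, Ccl9, Ccl8, Ccl3 and Ccl2, were among the top 2.63% of all genes kept.

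The other CC chemokine ligands were far less abundant. Of 13 further ligands, 10 were found in the files and 6 passed the filter. Of these, 3 were higher and 3 lower in the clodronate library, where 51.6% of all genes kept were higher. The higher ones include Ccl26 and the lower ones Ccl27a, each listed at 0 in 1 library. Their summed level was 57.4 RPKM with vehicle and 48.7 RPKM with clodronate. Ccl17 and Ccl22, which bind CCR4 and attract regulatory and type 2 helper T cells, had 29.9 and 15.7 RPKM and 18.0 and 14.2 RPKM. Of the genes between or beside the MCP members, Ccl11 had 4.09 and 7.26 RPKM, and Ccl1 was listed at 0 in the vehicle and had 0.589 RPKM in the clodronate library. Ccl27a had 3.60 RPKM in the vehicle and was listed at 0 in the clodronate library. Ccl26 and Ccl27a passed the filter only through the library in which they were above 0, so no fold is given for them.

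**Figure D4:**
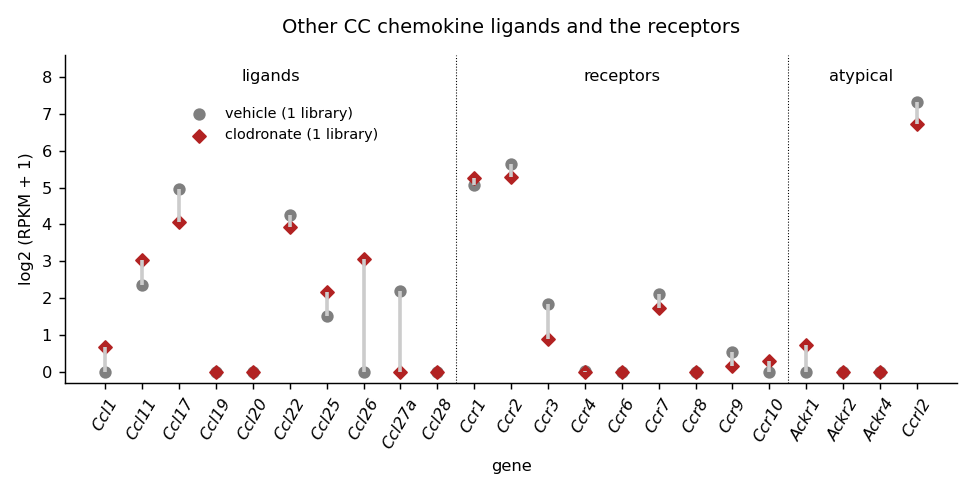
Level as log2 (RPKM + 1) of the other CC chemokine ligands, 9 CC chemokine receptors and the atypical receptors in the vehicle (grey circles) and the clodronate library (red diamonds), 1 library each. Ccrl2, Ccr2 and Ccr1 are the most abundant of the genes plotted, and among the ligands Ccl19, Ccl20 and Ccl28 lie at 0 in both.

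Among the receptors of these chemokines, the shared values are brief. Ccr2 had 48.5 RPKM with vehicle and 37.8 RPKM with clodronate, and Ccr1 had 32.5 and 37.1 RPKM. Of 9 CC receptors 4 passed the filter, and none of them was 2-fold higher or lower on RPKM with 1 added. Of all genes kept, 6.95% were 2-fold or more higher and 6.77% lower, so none among 4 genes is near these shares. As deposited, Ccr3 was 2.97 times higher with vehicle, at low values of 2.58 and 0.869 RPKM. Of the 4 genes listed as atypical receptors, only Ccrl2 passed, with 158 and 105 RPKM. Whether its product binds any of these chemokines was not tested. The receptor genes that passed thus differed by less than Ccl8 or Ccl24.

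Of 15 transcription factor genes whose products are known to act on promoters of CC chemokines, 11 were higher and 4 lower with clodronate, where 51.6% of all genes kept were higher, and their median log2 ratio was 0.17. Irf7, a factor of the interferon response, was the only gene of the list at least 2-fold apart, with 20.1 and 107 RPKM. This 1 gene of 15 stands against 6.95% of all genes kept that were 2-fold or more higher and 6.77% that were 2-fold or more lower. Stat2 had 20.4 and 32.4 RPKM. The NF-κB subunit genes Nfkb1 and Rela had 44.4 and 40.4 RPKM and 67.1 and 72.2 RPKM, and Stat6, which mediates the response to interleukin-4, had 62.4 and 69.3 RPKM.

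Markers of several cell types also differed between the libraries, and their part in the chemokine differences was not tested. Among the macrophage markers, 9 were higher and 7 lower in the clodronate library. Cd163 had 17.5 and 42.4 RPKM and Mrc1, the mannose receptor gene, had 174 and 289 RPKM, whereas C1qc had 3984 and 2043 RPKM. Scaling the libraries to the same geometric mean of the macrophage markers left log2 ratios of 1.94 for Ccl24, 1.75 for Ccl8 and 1.65 for Ccl12. Of 6 monocyte markers 4 were higher, with F13a1 at 132 and 247 RPKM and Ly6c2 at 12.99 and 23.05 RPKM, and 2 were lower, with Chil3 at 36.4 and 14.8 RPKM. The summed level of the list was 240.9 and 391.9 RPKM.

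The fibroblast markers, from cells that can also make Ccl2 and Ccl7, summed to 158 RPKM with vehicle and 78.5 RPKM with clodronate. Of the 8 that passed the filter 6 were lower, where 51.6% of all genes kept were higher. Most of the sum came from Dcn, at 77.3 and 28.4 RPKM, and Col3a1, at 62.1 and 34.4 RPKM. The 2 higher ones were Acta2, at 0.138 and 2.03 RPKM, and Col1a1, at 2.32 and 5.40 RPKM. Acta2 passed the filter only through the clodronate library. Below the filter, Fap had 1.34 and 0.0713 RPKM, and Pdgfrb was listed at 0 in the vehicle and had 0.290 RPKM in the clodronate library. Of 8 endothelial markers 3 passed the filter, with a median log2 ratio of 0.95. All 3 were higher with clodronate, where 51.6% of all genes kept were higher. Cdh5 had 0.480 and 3.24 RPKM and passed the filter only through the clodronate library. Pecam1 had 1.24 and 3.33 RPKM and Eng had 22.3 and 25.7 RPKM, most of the summed level of 25.7 and 33.5 RPKM. Below the filter, Vwf was lower, at 0.967 and 0.443 RPKM, and Kdr higher, at 0.650 and 0.831 RPKM, and the other 3 were listed at 0 in both. The dendritic cell markers summed to 24.6 and 30.3 RPKM, and the neutrophil markers to 43.1 and 45.1 RPKM. Of the dendritic cell markers that passed the filter, Cd209a had 1.25 and 8.68 RPKM and Zbtb46 had 1.05 and 1.09 RPKM. Itgax, the most abundant of them, was lower, at 21.2 and 19.6 RPKM. The mast cell, basophil and eosinophil markers summed to 58.1 and 43.3 RPKM, the epithelial markers to 12.8 and 10.97 RPKM and the B cell markers to 2.99 and 1.74 RPKM.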

How the data were processed

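The authors deposited RPKM, reads scaled to transcript length and library size, for 23170 loci in each of 2 polyA libraries, 1 vehicle and 1 clodronate. The submitters' processing notes name CASAVA 1.8.2, TopHat2 2.0.9, Bowtie 0.12.9, Cufflinks 2.2.1, Cuffdiff and build mm9. The paper that carries the title of the series describes no tumor experiment, and no method was taken from it. Since these values are scaled, count models were not applied. For 26 loci whose symbol was a number, the accession served as the name. Rows of a symbol were summed, giving 22886 genes, of which 10982 with a mean of at least 1 RPKM were kept. Before log2 ratios of clodronate over vehicle were taken, 1 RPKM was added to each value, so changes of low genes are understated.

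Low RPKM of loci with 1 accession, multiplied by the GENCODE M21 transcript length less 202 nt, fell on steps. The step gave the reads of each library, and 73.2% (vehicle) and 72.4% (clodronate) of loci under about 10 reads came within 0.1 of a whole number. Depth and length offset were chosen to bring low loci near whole numbers, so these shares describe the fit and do not test it. Read numbers of the 10 genes are estimates from these depths. The 10 genes and the lists were chosen with earlier results of these data known. Named are the 10 genes and genes of the lists, and any other gene is marked. A few genes of the lists are not reported here and were left out of their counts. Of 136 list entries 131 were found by symbol, 1 (Adgre1) by RefSeq accession and 4 were not found. The ratio and interval steps were tested on simulated data. Alternatives tried were 0.1 RPKM as pseudocount, keeping every gene, a minimum mean of 5 RPKM, median centring, scaling to the upper quartile or to the macrophage markers, the highest row of a symbol, leaving out small RNA loci and 2-fold. A minimum mean of 10 RPKM and a correction for GC content and length (medians of 10 bins subtracted, 98.7% of genes kept had values) were chosen after seeing the data. Python 3.11.15, numpy 2.4.6, pandas 2.3.3, scipy 1.17.1, biopython 1.88 and matplotlib 3.10.9 were used.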

Additional observations from a re-analysis of the deposited data

How the results depend on the processing

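No paired analysis was possible because vehicle and clodronate have a single library each. A value was taken as moved when it changed by over 1.5 times. Over the alternatives, the median log2 ratio of the 10 chemokine genes ran from 0.74 to 1.18 and did not move. The ratio of their sums was computed under 6 alternatives, where it ran from 1.65 to 1.75 and did not move. Both minimum means, the highest row of a symbol and leaving out small RNA loci cannot change this ratio, so agreement under them is no check. Among the 6, only scaling could change it, to the upper quartile (1.68) or to the macrophage markers (1.65). The ratio of the sums was not computed for median centring or for the correction for GC content and length, which can change it. Ccl8, Ccl12 and Ccl24 were at least 3-fold higher under every alternative run. Ccl2 joined them at 2-fold and, with a log2 ratio of 1.64, under the correction for GC content and length, which also turned the sign of Ccl3 and Ccl5, as given above; no gene of the 10 was 3-fold lower under any alternative, and none was 2-fold lower. The 8 genes other than Ccl3 and Ccl5 had the same sign under all 10 alternatives that give a log2 ratio. Several of these cannot change the log2 ratios of the 10 genes or their median, so agreement under them is no check. They are keeping every gene, both minimum means, the highest row of a symbol and leaving out small RNA loci.

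Over the whole table, 314 genes passed 3-fold upward and 255 downward. The numbers became 532 and 480 when 0.1 RPKM was added instead of 1, 127 and 101 for a minimum mean of 5 RPKM, 83 and 62 for a minimum mean of 10 RPKM and 763 and 744 at 2-fold, settings that by construction change how many genes can pass. The estimated depth limits low values such as those of Ccl1, Ccl26 and Ccl27a most. Replicates are lacking, so the intervals understate the uncertainty of every ratio.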
